A study of Mus musculus with 18 samples.

Results

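The comparison set oocyte-free cumulus complexes cultured with estrogen (E2; sample titles "E2 OOX") against oocyte-free complexes cultured without it ("OOX"), 6 of the 18 arrays of the study, 3 against 3. Members were chosen by sample title, which names arrays 5, 11 and 17 for estrogen and arrays 2A, 8 and 14 for no estrogen. The oocyte had been cut out of the complexes of both groups, so all 6 arrays hold cumulus cells from antral follicles of female mice that were cultured with no oocyte present. The other 12 arrays hold cumulus cells of intact complexes with and without estrogen (E2 COC and COC) and of oocyte-free complexes cultured together with oocytes, with and without estrogen, 3 arrays each. Strain, age, estrogen dose and culture time are not given in the sources used here, and the labels do not say whether arrays of 1 group stem from different animals or cultures. The p-values therefore describe the spread among these arrays, which may be technical. The study's title and design text name the joint action of estrogen and oocytes on cumulus cell transcripts as its question, and this comparison asks what estrogen changes when the oocyte is absent.

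Cumulus cells are the granulosa cells that stay attached to the oocyte in the antral follicle. Estradiol, made by granulosa cells from theca androgens, acts in them through nuclear estrogen receptors, ESR1 and ESR2, which bind DNA at palindromic elements or through other transcription factors and recruit coactivators and corepressors. In the mouse follicle, oocyte factors of the GDF9 and BMP15 family keep cumulus cells in glycolysis, sterol synthesis and amino acid uptake, and estrogen supports receptors such as NPR2 that maintain meiotic arrest.

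The labels of array 5 conflict: its title puts it in the estrogen group, while its source name and treatment label name no estrogen. It is kept here under its title, and results are also given without it. In a fit that left array 5 out, 112 genes were called, and array 5 lay nearer the mean of the other estrogen arrays than that of the arrays without estrogen for 108 of them (96.4%). By the same measure, array 17 lay nearer its own group for 56.7% of the genes called without it and array 14 for 61.5%, while arrays 11, 2A and 8 did so for 93%, 89.2% and 94.9%. With array 5 grouped by its source name instead, limma called 0 genes, against 627 at an unadjusted p under 0.05. The array names fall into 3 series. Estrogen arrays 5 and 11 lay in series 1 and array 17 in series 3, while arrays 2A and 8 without estrogen lay in series 3 and array 14 in series 2. Series 3 is thus the only series that held both groups. Array 5 shared series 1 with estrogen array 11 and with no oocyte-free array without estrogen. Its nearness to the estrogen mean therefore cannot be told apart from an effect of array series. Array 14 had the smallest interquartile range of the 18 arrays (2.54, against 2.70 to 3.06 on the others) and correlated with the other 5 oocyte-free arrays at 0.957 to 0.966, while arrays 2A and 8 correlated with each other at 0.989. Array 17 correlated with array 2A at 0.983 and with its own group's arrays 5 and 11 at 0.982 and 0.976.

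The cells carried granulosa markers in both groups. Over 11 granulosa marker genes, the mean log2 level lay between 9.21 and 9.41 in the estrogen arrays and between 8.99 and 9.11 in those without. The median over all single-gene probe sets and arrays was 5.82. Of 14 oocyte markers, 13 lay below that median with estrogen and 11 without, with mean levels of 4.65 to 4.72 and 4.76 to 5.24, and no oocyte marker was called. Endothelial and blood cell markers averaged 4.54 to 4.62 with estrogen and 4.73 to 5.11 without, and 0 of 15 were called. Theca and stroma markers averaged 5.84 to 6.00 and 5.95 to 6.25, with 0 of 11 called. Surface epithelium markers averaged 5.30 to 5.37 with estrogen and 5.61 to 5.65 without, and 1 of 10, the galectin gene Lgals7, fell. The ranges with estrogen lay below those without for oocyte, endothelial and blood, and surface epithelium markers and overlapped for theca and stroma markers. The part of these differences in the results was not tested.

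Estrogen changed 272 of 18193 genes in oocyte-free complexes, 1.5% of those tested. A gene was called where limma's Benjamini-Hochberg adjusted p over all 34945 single-gene probe sets was under 0.05, and is then said to have risen or fallen. Of the 272 genes, 164 rose (0.901% of those tested) and 108 fell (0.594%), and 209 moved by at least 2-fold. After a second quantile normalization the split was 179 risen and 180 fallen, so that 49.9% of the called genes were higher, against 60.3% here. The median change over all genes was -0.083 on the log2 scale, and an unadjusted p under 0.05 was reached by 2697 genes. The 3 arrays with estrogen and the 3 without did not overlap for 271 of the 272 called genes, and for 3897 genes in all (21.4%). In such bulk samples, fewer cells of a type and less RNA per cell cannot be told apart.

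The number of calls rests heavily on single arrays. Without array 5 it was 112, without 11 186, without 2A 93 and without 8 59, whereas it was 691 without array 17 and 877 without array 14. All 272 genes kept their sign without array 5, in a fit with array series as a term, where 185 of them were called, and within series 3, where array 17 alone stood against 2A and 8 and 169 of them differed by at least 2-fold in the same direction. Values of p within series 3 rest on that single estrogen array, and their spread comes from the other arrays of the fit. These fits reuse the same arrays and are not independent of the calls. Where the groups do not overlap, as for 271 of the 272 genes, leaving out arrays cannot change the sign.

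**Figure D1:**
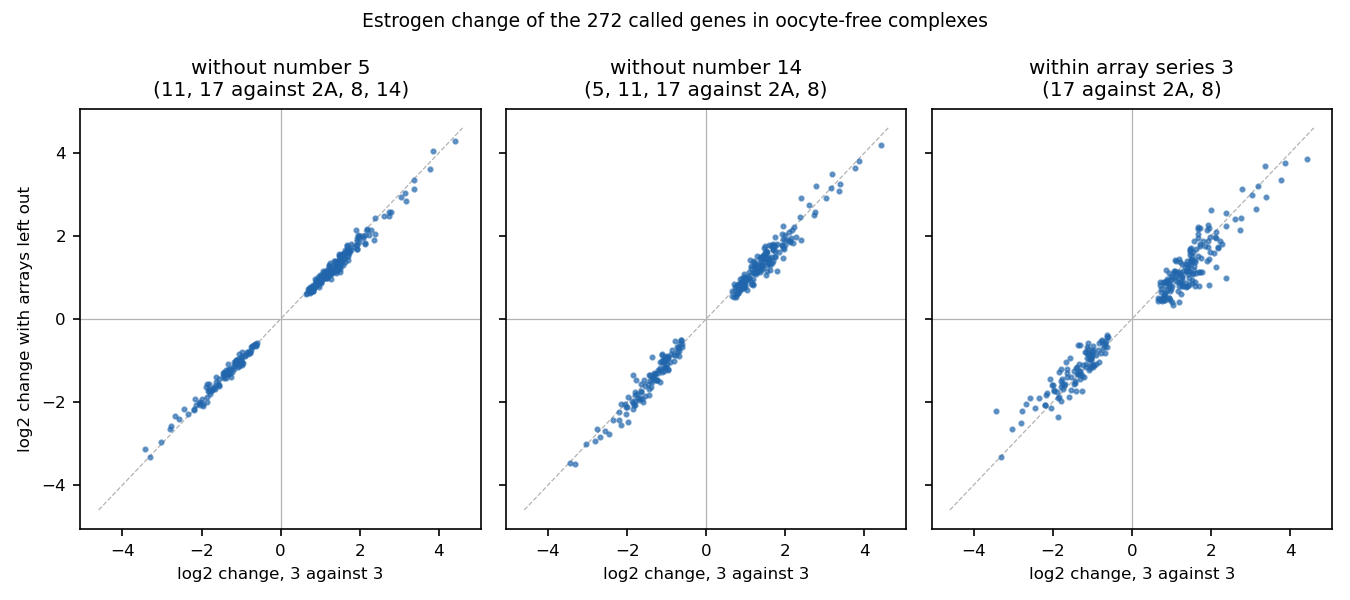
Log2 change with estrogen of the 272 called genes (1 point each) over all 6 arrays (horizontal axis) against the change without array 5, without array 14 and within array series 3 (vertical axes); the dashed line marks equal values. All points keep their sign in the 3 panels, and the spread around the line is widest within series 3, where 1 array stands against 2. For the 271 genes whose groups do not overlap, the sign in these panels is fixed in advance.

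The largest rise was that of Rgs13, which encodes a regulator of G protein signalling known from B cells and mast cells. Its log2 levels were 7.84, 7.69 and 7.23 in estrogen arrays 5, 11 and 17, against 3.11, 3.67 and 2.72 in arrays 2A, 8 and 14, the order of arrays kept below. Every estrogen array was thus more than 3 log2 units above every array without estrogen. The change of 4.42 ± 0.326 (n = 3 per group) is a 21.4-fold difference (limma adjusted p = 2.86e-06). Here and below, ± after a change is the SE from the limma fit over the arrays of all groups. This SE therefore also reflects the spread of intact complexes and cocultures, not only that of the oocyte-free arrays. Without estrogen Rgs13, and likewise Crh and Myf5 below, lay far under the median of 5.82, where RMA values are compressed and folds are understated, so these folds and their rank are approximate. Crh, which encodes corticotropin-releasing hormone, the hypothalamic peptide of the stress axis, had 6.58, 7.36 and 6.88 with estrogen, against 3.41, 2.85 and 2.97 without. It rose by 3.86 ± 0.386, or 14.6-fold (limma adjusted p = 5.43e-05). The fibrillin gene Fbn2, a component of extracellular microfibrils, had 11.5, 11.11 and 10.87 with estrogen, against 7.80, 7.23 and 7.13 without, a 13.7-fold rise. Hsd11b2, whose enzyme inactivates glucocorticoids, had 8.36, 7.71 and 7.54 with estrogen, against 4.66, 4.56 and 4.25 without, and rose 10.4-fold.

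Mycn and Myf5, both transcription factor genes, were among the largest rises. Mycn, which encodes the growth-promoting factor N-Myc, had 9.94, 9.24 and 10.49 with estrogen, against 7.24, 6.36 and 5.99 without, a 10.3-fold rise seen in 1 of its 3 probe sets. Myf5, a myogenic factor of muscle precursors, had 7.07, 7.11 and 6.34 with estrogen and lay between 3.67 and 3.72 on the 3 arrays without it. The arrays without estrogen were low and almost level for Myf5, which rose 8.86-fold. Sgpp2, which encodes a sphingosine-1-phosphate phosphatase, had 9.31, 8.25 and 8.36 with estrogen, against 4.45, 5.87 and 6.07 without, a 9.04-fold rise. The glutamine transporter gene Slc38a3, which oocytes are known to raise in cumulus cells, had 10.04, 9.55 and 9.92 with estrogen, against 6.90, 6.95 and 6.53 without, and rose 8.24-fold. Crispld2, a secreted glycoprotein gene, had 12.44, 11.87 and 11.92 with estrogen, against 9.45, 9.54 and 9.00 without. Its 3 probe sets all rose, its change was 2.75 ± 0.180 and its limma adjusted p, 1.6e-06, was the lowest of the named genes, together with that of Tgfbi.

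Ddah1, whose enzyme breaks down an inhibitor of nitric oxide synthases, rose 6.65-fold, and Kctd14, a BTB domain gene, 6.12-fold. Gas2l3, which encodes a linker of actin and microtubules in dividing cells, rose 5.25-fold, Heph, the copper-dependent iron oxidase hephaestin, 5.23-fold, and the predicted gene Gm2102 6.85-fold. Only 2 of 5 probe sets of Ddah1 and 1 of 2 of Gm2102 were called.

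**Figure D2:**
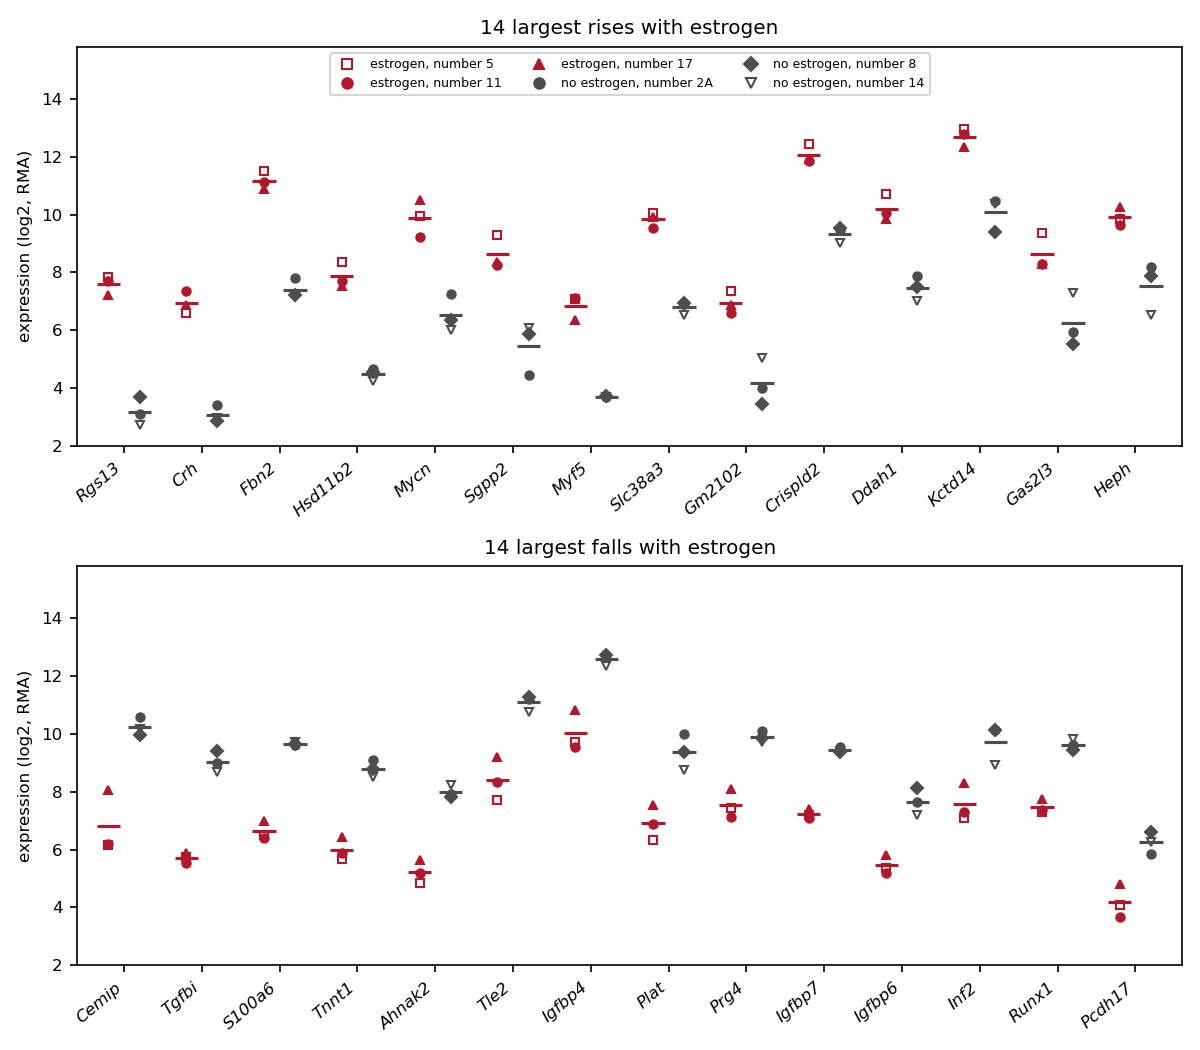
Log2 expression of the 14 genes with the largest rise (top) and the 14 with the largest fall (bottom) among called genes whose groups do not overlap, with the 3 estrogen arrays in red to the left of the 3 arrays without estrogen in grey; bars are group means, and open symbols mark arrays 5 and 14. Array 17 is the estrogen array nearest to the group without estrogen for each of the 14 falling genes, as for Cemip (8.06, against 6.16 and 6.20 in arrays 5 and 11).

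The largest fall was that of Cemip, whose protein binds hyaluronan and promotes its breakdown. Its levels were 6.16, 6.20 and 8.06 with estrogen, against 10.60, 9.97 and 10.18 without. It fell 10.9-fold on average (limma adjusted p = 0.000392), with array 17 far above the other estrogen arrays, and 1 of its 3 probe sets was called. Tgfbi, which encodes a secreted adhesion protein induced by TGF-beta in many cells, had 5.74, 5.55 and 5.88 with estrogen, against 9.01, 9.42 and 8.68 without. All 4 of its probe sets fell, and its fold was 9.94. The calcium-binding gene S100a6 had 6.52, 6.39 and 6.98 with estrogen, against 9.61, 9.65 and 9.72 without, an 8.17-fold fall. Prg4, the joint lubricant lubricin, had 7.43, 7.12 and 8.09 with estrogen, against 10.11, 9.86 and 9.72 without, and fell 5.10-fold. Plat, the tissue plasminogen activator gene, fell 5.48-fold, and the protocadherin gene Pcdh17 4.17-fold, each in 1 of 2 probe sets.

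Igfbp4, Igfbp6 and Igfbp7, which encode insulin-like growth factor binding proteins, all fell. Igfbp4, whose product restrains IGF action, had 9.72, 9.55 and 10.83 with estrogen, against 12.74, 12.72 and 12.34 without, and 5 of its 6 probe sets fell. Igfbp6, whose product prefers IGF2, had 5.38, 5.19 and 5.80 with estrogen, against 7.64, 8.12 and 7.21 without, a 4.59-fold fall. Igfbp7 had 7.20, 7.10 and 7.39 with estrogen, against 9.55, 9.38 and 9.37 without, and fell 4.61-fold, in 1 of its 3 probe sets. The family was singled out after its values were seen: 3 of 7 measured members fell and 0 rose, with a family median of -0.37. Over all genes 0.594% fell.

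Tnnt1, the slow skeletal troponin T gene, fell 6.96-fold, the scaffold gene Ahnak2 6.81-fold and the formin gene Inf2 4.47-fold. Tle2, a Groucho-type corepressor gene, had 7.72, 8.33 and 9.21 with estrogen, against 11.23, 11.29 and 10.78 without, and fell 6.41-fold. Runx1, a transcription factor gene of the Runt family, had 7.31, 7.38 and 7.74 with estrogen, against 9.61, 9.44 and 9.82 without, a 4.43-fold fall in 1 of its 6 probe sets.

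The 28 genes of largest change had limma adjusted p-values between 1.6e-06 and 0.0202. Without array 5, 26 of them were called. The 2 that were not are Igfbp4 (limma adjusted p = 0.0631) and Inf2 (0.129), which were also not called within series 3 (0.104 and 0.0572). Without array 2A 24 of the 28 were called, without array 8 24 and without array 11 27. All 28 were called without array 17, without array 14, and with array series as a term.

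Promoters of 3 of these genes are shown because they stand for the largest rise, the rise and the fall with the lowest adjusted p, and because the estrogen response element is the best known entry point of the nuclear receptors. Each runs from 250 bases before to 50 after the RefSeq gene start on the assembly GRCm38.p6, on the gene's own strand. Capitals mark GGTCA, the single arm of the palindromic element, searched on both strands. Rgs13 lies at chr1:144177323-144177622 (minus strand), Crispld2 at chr8:119992188-119992487 (plus strand) and Tgfbi at chr13:56609336-56609635 (plus strand).
Rgs13: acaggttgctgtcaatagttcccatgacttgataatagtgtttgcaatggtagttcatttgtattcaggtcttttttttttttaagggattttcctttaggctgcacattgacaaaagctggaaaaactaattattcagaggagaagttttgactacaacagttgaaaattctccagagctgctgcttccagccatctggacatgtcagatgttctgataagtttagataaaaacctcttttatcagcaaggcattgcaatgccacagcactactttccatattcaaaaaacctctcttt
Crispld2: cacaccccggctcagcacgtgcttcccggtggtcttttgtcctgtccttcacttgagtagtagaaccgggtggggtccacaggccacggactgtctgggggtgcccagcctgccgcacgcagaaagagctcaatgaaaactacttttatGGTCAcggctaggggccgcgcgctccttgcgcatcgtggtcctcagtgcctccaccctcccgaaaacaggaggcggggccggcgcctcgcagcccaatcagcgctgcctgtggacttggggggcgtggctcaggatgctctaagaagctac
Tgfbi: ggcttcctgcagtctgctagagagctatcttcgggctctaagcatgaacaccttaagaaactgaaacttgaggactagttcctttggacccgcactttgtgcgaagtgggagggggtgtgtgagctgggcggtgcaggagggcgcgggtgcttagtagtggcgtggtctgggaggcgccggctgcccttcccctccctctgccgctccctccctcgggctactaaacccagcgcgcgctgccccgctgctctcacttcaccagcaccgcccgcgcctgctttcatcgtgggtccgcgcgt
Crispld2 holds 1 such arm, and the Rgs13 and Tgfbi windows hold none. Over all genes with a promoter in the table, the arm was present in 49 of 127 genes that rose (38.6%), 38 of 88 that fell (43.2%) and 43.5% of 14452 measured genes. The complete element (GGTCA, any 3 bases, then TGACC, which is itself a pair of arms) was found in 0 of the rising and 0 of the falling genes and in 5 of the 14452. A match is a description of letters in this window alone.

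No gene of the estrogen receptors and their coregulators was called over all 6 arrays, but Esr1 was called once array 14 was left out. Esr1, the receptor alpha gene, had 7.33, 7.32 and 7.25 with estrogen, against 6.11, 5.98 and 7.70 without (log2 change 0.70 ± 0.314, limma adjusted p = 0.347). Arrays 2A and 8 lay more than 1 log2 unit below the estrogen arrays, and array 14 above them. Of the 3 Esr1 probe sets, 0 were called over all 6 arrays, with changes between -0.03 and 0.70. Without array 14 the change of Esr1 was 1.25 (limma adjusted p = 0.000871), within series 3 it was 1.20 (0.0305), and without array 5 it was 0.69 (0.707). Esr2, the receptor beta gene, had 7.33, 6.27 and 7.29 with estrogen, against 6.54, 6.10 and 6.50 without (0.58 ± 0.306). The membrane receptor gene Gper1 had 6.10, 6.16 and 5.83 with estrogen, against 6.42, 6.69 and 6.58 without (-0.53 ± 0.183, limma adjusted p = 0.212). Nrip1, a corepressor gene of nuclear receptors that rose by 0.72 in intact complexes, changed by 0.52 ± 0.222 here and was not called. Over the 15 measured genes of this list, 0 were called and changes lay between -0.53 and 0.70, with a median of 0.03.

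Textbook estrogen targets, known mainly from breast and uterine cells, held a single call. Of 26 measured genes, 1, Igfbp4, fell and 0 rose, with a median of -0.19, against 1.5% called over all genes. The list had 0 calls without array 5, 2A or 8, and 3 without array 17. In intact complexes 5 rose and 2 fell, but 0 of the 26 were called in the test of the difference between oocyte-free and intact complexes. Outside the rule for naming, Greb1, a growth regulator induced by estrogen in breast cells, had 12.35, 12.47 and 12.52 with estrogen, against 12.16, 12.13 and 12.00 without. These groups did not overlap, yet the change of 0.35 ± 0.184 was not called. Pgr, the progesterone receptor gene, changed by -0.36 ± 0.221 and was not called.

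Some cell cycle genes rose with estrogen in oocyte-free complexes. Of 39 measured genes, 8 rose and 0 fell, against 0.901% risen and 0.594% fallen over all genes. The list median was 0.78, against -0.083 over all genes. Ube2c, which encodes the ubiquitin-conjugating enzyme of the anaphase-promoting complex, had 9.51, 9.14 and 7.10 with estrogen, against 6.13, 6.11 and 6.40 without, with array 17 nearer the arrays without estrogen. Aurkb, the mitotic kinase aurora B, had 7.38, 6.74 and 6.03 with estrogen, against 5.30, 4.24 and 4.20 without (2.14 ± 0.462, limma adjusted p = 0.0297). Rrm2, the ribonucleotide reductase subunit that supplies deoxynucleotides, had 9.50, 9.16 and 9.27 with estrogen, against 7.69, 7.92 and 7.10 without (1.74 ± 0.290). Ccnb2, the cyclin B2 gene, rose by 1.60 ± 0.312, and Mki67, Cdk1, Cenpa and Cdc25c rose by 1.49, 1.40, 1.17 and 0.90. The count depended on single arrays: 1 of the 39 was called without array 5, 1 without 11, 2 without 2A and 0 without 8, against 16 without 17 and 13 without 14. The list median stayed between 0.68 and 0.91 with 1 array left out and was 0.43 within series 3, where 0 were called. In intact complexes 0 rose and 1 fell, with a median of 0.13, where 8.03% of all genes were called. In cocultures the counts were the same with a median of 0.08, where 3.74% of all genes were called. The difference from intact complexes was called for 0 of the 39 genes and that from cocultures for 1, Rrm2.

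Some extracellular matrix genes fell. Of 26 measured genes, 5 fell and 0 rose, with a median of -0.39. Over all genes 0.594% fell, and the median was -0.083. Col4a2, a basement membrane collagen chain, had 5.08, 4.63 and 5.26 with estrogen, against 6.42, 6.70 and 6.79 without. Timp1, an inhibitor of matrix metalloproteinases, had 8.12, 8.34 and 7.88 with estrogen, against 9.62, 9.61 and 9.37 without. Mmp2, the gelatinase A gene, had 6.97, 6.62 and 7.15 with estrogen and 8.27 to 8.33 without. The proteoglycan gene Bgn fell by 1.30 ± 0.275, and the laminin gene Lama1 by 1.00 ± 0.223. Of the 26, 2 were called without array 5, 3 without 11, 1 without 2A and 1 without 8, against 9 without 17 and 10 without 14, with list medians between -0.52 and -0.32. In intact complexes 9 matrix genes fell and 1 rose, where 8.03% of all genes were called. The difference between oocyte-free and intact complexes was called for 1, Mmp2.

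Genes of the activin and TGF-beta family and of granulosa identity rose in part. Inhba, the activin beta A chain, had 11.95, 11.61 and 11.29 with estrogen, against 10.29, 9.97 and 10.27 without. Fst, the activin-binding protein follistatin, had 11.11, 10.51 and 10.56 with estrogen, against 10.08, 9.43 and 9.14 without. For Inhba and Fst alike, 1 of 2 probe sets was called, and the other of Inhba changed by -0.04. Tgfb2, a TGF-beta ligand, had 8.33, 6.94 and 7.99 with estrogen, against 6.36, 5.45 and 5.07 without, a 4.37-fold rise in 1 of 4 probe sets. Inha, the inhibin alpha chain, had 13.31, 13.05 and 13.06 with estrogen, against 12.74, 12.48 and 11.97 without. These were the 4 of 21 family genes called, against 1.5% called over all genes. Without array 5, 2 family genes rose, and without array 8 none did. Among 11 granulosa markers, Inha, Fst and Wt1 rose, and Amhr2, the receptor of anti-Müllerian hormone, fell with 11.27, 11.18 and 10.89, against 12.09, 12.01 and 12.14 without estrogen. Foxo1, a forkhead factor of growing follicles, rose by 0.74 ± 0.155, in 1 of its 4 probe sets. Without array 5, Inha, Fst, Wt1, Amhr2 and Foxo1 were not called (limma adjusted p = 0.218, 0.0935, 0.134, 0.0564 and 0.120).

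Both members of the ligand and receptor pair that supplies cyclic GMP for meiotic arrest rose. Nppc, the C-type natriuretic peptide gene and a mural granulosa marker, had 7.47, 7.16 and 6.93 with estrogen, against 5.53, 5.60 and 5.83 without (1.53 ± 0.291, limma adjusted p = 0.0129). Npr2, its guanylyl cyclase receptor and a cumulus marker, had 10.39, 9.97 and 10.81 with estrogen, against 8.97, 8.90 and 8.63 without (1.56 ± 0.287, limma adjusted p = 0.0101). Groups did not overlap for either gene. Without array 5 neither was called (limma adjusted p = 0.0956 for Nppc and 0.0513 for Npr2), with changes of 1.39 and 1.56, and neither was called without array 2A or without array 8. The other 13 genes of the cyclic GMP list were not called. Of the marker lists, 4 of 13 mural and 3 of 10 cumulus markers rose and 0 fell, against 0.901% risen over all genes. Without array 5, 1 of each list was called. Without array 8, 0 mural and 1 cumulus marker were called, and without array 2A 1 cumulus marker was.

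Of 16 glycolysis genes 2 rose and 0 fell, with a median of 0.50. Over all genes 0.901% rose, and the median was -0.083. Ldha, the lactate dehydrogenase A gene, had 11.61, 11.55 and 11.63 with estrogen, against 10.51, 10.47 and 10.20 without, and rose 2.30-fold (limma adjusted p = 0.00135). The triosephosphate isomerase gene Tpi1 rose by 0.85 ± 0.193, and by 0.76 without array 5, where it was not called (limma adjusted p = 0.242). Ldha was called without array 5 (0.0126). The list had 1 call without array 5, 11, 2A or 8, and 3 without array 17. Of 18 amino acid transporters, Slc38a3 and Slc38a5 rose and Slc43a2, a leucine transporter gene, fell by 1.80 ± 0.300. Over all genes 0.901% rose and 0.594% fell. Without array 5 Slc43a2 was called (limma adjusted p = 0.0441) and Slc38a5 was not (0.0928). Of 19 cholesterol synthesis genes, 0 were called here and 6 rose in intact complexes, while the difference between the estrogen effects was called for 0 of the 19. Akr1c18, whose enzyme inactivates progesterone, had 5.43, 5.13 and 5.46 with estrogen, against 6.81, 6.31 and 6.58 without, and was 2.34-fold lower.

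Smaller sets of ligands and transcription factors also moved. Epas1, the hypoxia-responsive factor HIF-2 alpha, had 13.38, 13.10 and 13.35 with estrogen, against 12.02, 11.62 and 11.78 without, and also rose in intact complexes (1.48) and cocultures (1.26). Fos, an immediate early factor gene, had 11.97, 11.32 and 11.99 with estrogen, against 10.01, 9.58 and 10.51 without. Bmp6 rose by 1.68 ± 0.388, Vegfb by 1.04 ± 0.239 and the hyaluronan-linked gene Itih5 by 1.27 ± 0.242. Hsd17b11, a hydroxysteroid dehydrogenase gene, rose by 0.89 ± 0.203, in 1 of its 3 probe sets. Without array 5 none of these 4 was called (limma adjusted p = 0.242 for Bmp6, 0.242 for Vegfb, 0.0956 for Itih5 and 0.217 for Hsd17b11), and Vegfb changed by 0.34 within series 3 (0.541). Epas1 and Fos were called without array 5 (0.0455 and 0.0369), and neither was without array 2A or array 8. Sfrp2, a secreted Wnt antagonist gene, fell by 0.69 ± 0.122 at levels below the median of all values on every array. None of 19 cell death and survival genes was called.

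**Figure D3:**
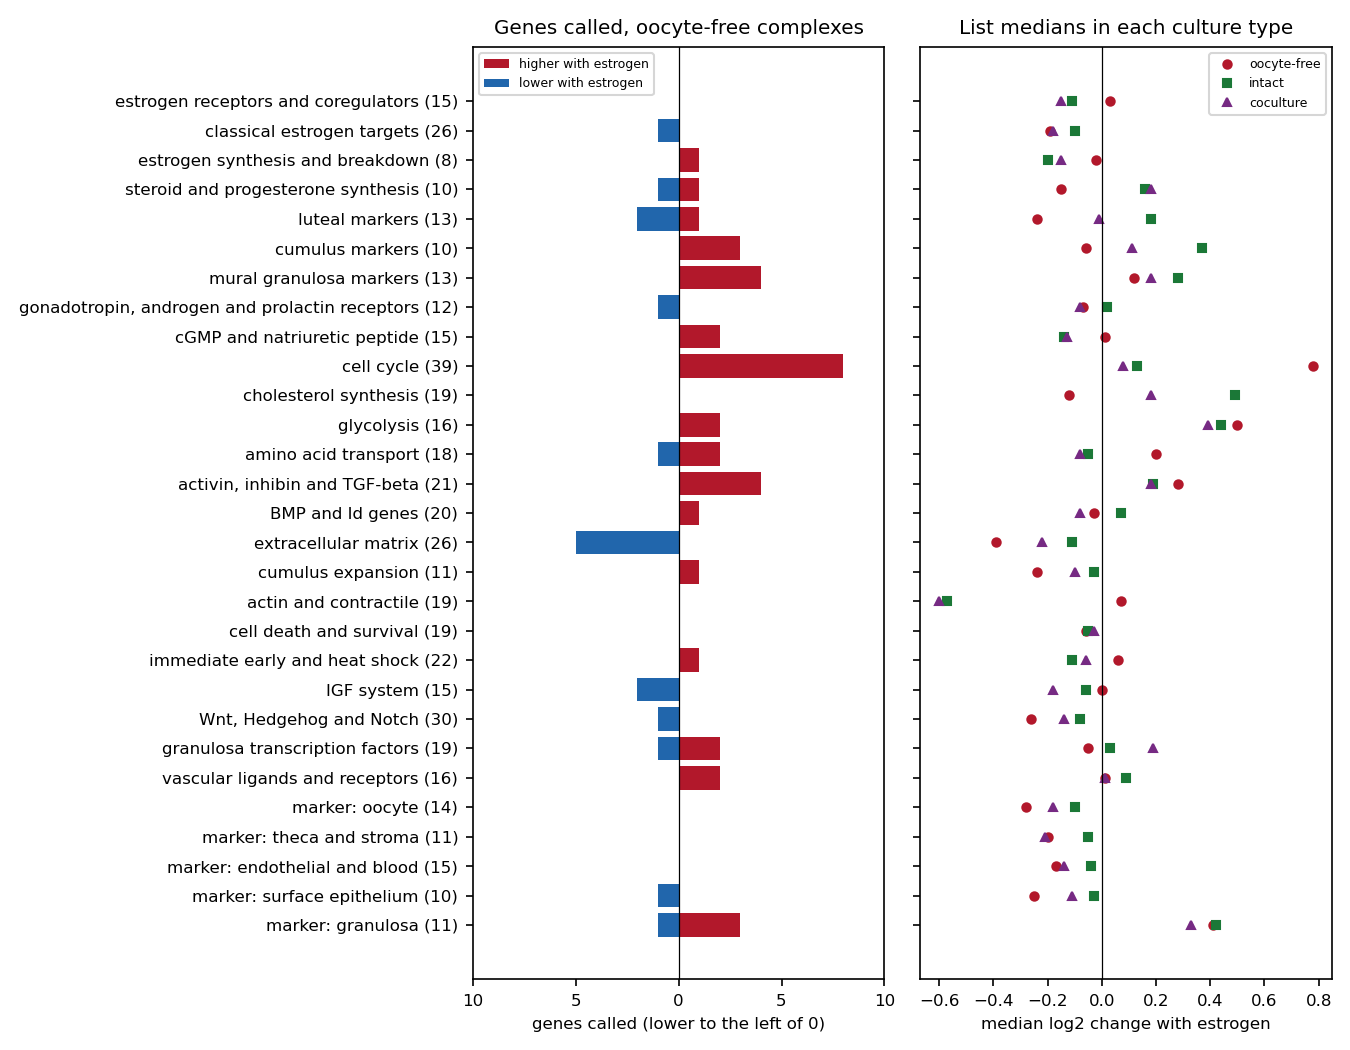
Genes called higher (right) or lower (left) with estrogen in oocyte-free complexes for each gene list, with the number of measured genes in brackets (left panel), and the median log2 change of each list with estrogen in oocyte-free complexes, intact complexes and cocultures (right panel). The cell cycle list has the most calls, with 8 genes higher, and a median of 0.78 in oocyte-free complexes against 0.13 in intact complexes and 0.08 in cocultures.

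Part of the estrogen response was shared with complexes that had oocytes. The intact and coculture contrasts share no array with the oocyte-free one. Estrogen changed 1460 genes in intact complexes (8.03% of those tested) and 680 in cocultures (3.74%), whose arrays spread less. The median SD of a gene was 0.18 in oocyte-free arrays with estrogen and 0.25 in those without. In the same order it was 0.13 and 0.14 in intact complexes and 0.15 and 0.17 in cocultures. Of the 272 genes called in oocyte-free complexes, 78 changed in the same direction in intact complexes (28.7% of these 272, 5.34% of the 1460) and 16 in the opposite one. In cocultures 67 changed in the same direction (24.6% of the 272, 9.85% of the 680) and 8 in the opposite one. In all 3 culture types 31 genes rose and 26 fell.

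Fbn2 was among the genes that rose in all 3, by 3.77 in oocyte-free complexes, 3.06 in intact complexes and 2.79 in cocultures. In the same order, the log2 change was -2.20, -3.33 and -3.45 for Igfbp7, -2.35, -1.33 and -1.59 for Prg4 and -2.15, -1.12 and -1.19 for Runx1. For these 4 genes neither difference between culture types was called. Rgs13 and Hsd11b2 rose in all 3, and the change was larger without the oocyte, from a lower level. Without estrogen their means were 3.17 and 4.49 in oocyte-free complexes, against 6.49 and 8.49 in intact ones. With estrogen they were 7.59 and 7.87, still below the 8.16 and 9.49 of intact complexes. The log2 change of Rgs13 was 4.42 against 1.67 in intact complexes (limma adjusted p of the difference = 0.00155) and 1.40 in cocultures (0.00128), and that of Hsd11b2 was 3.38 against 1.00 (0.000469) and 1.38 (0.00376). Tgfbi likewise fell in all 3, with changes of -3.31, -0.85 and -0.71 and with both differences called. Its mean without estrogen was 9.04 in oocyte-free complexes, against 6.10 in intact ones. Npr2 and Inhba rose by 2.06 and 2.11 in intact complexes, and their differences from oocyte-free complexes were not called.

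The estrogen effect itself differed between oocyte-free and intact complexes for 250 genes (1.37% of those tested), more positive without the oocyte for 137 and more negative for 113. Of these, 75 were called in oocyte-free complexes alone, 128 in intact complexes alone, 8 in both in the same direction, 16 in both in opposite directions and 23 in neither. Against cocultures the effect differed for 176 genes (0.967%), 115 positive and 61 negative. Among the 272 genes called in oocyte-free complexes, 99 differed from intact complexes and 77 from cocultures, and these tests share the oocyte-free arrays with the call. The 250 genes became 142 without array 5, 104 without 2A and 64 without 8, against 474 without 17 and 473 without 14. The 176 became 91, 54 and 34 without arrays 5, 2A and 8, and 271 and 338 without arrays 17 and 14. All intact arrays lay in series 1, and with series as a term the counts were 220 against intact complexes and 280 against cocultures.

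**Figure D4:**
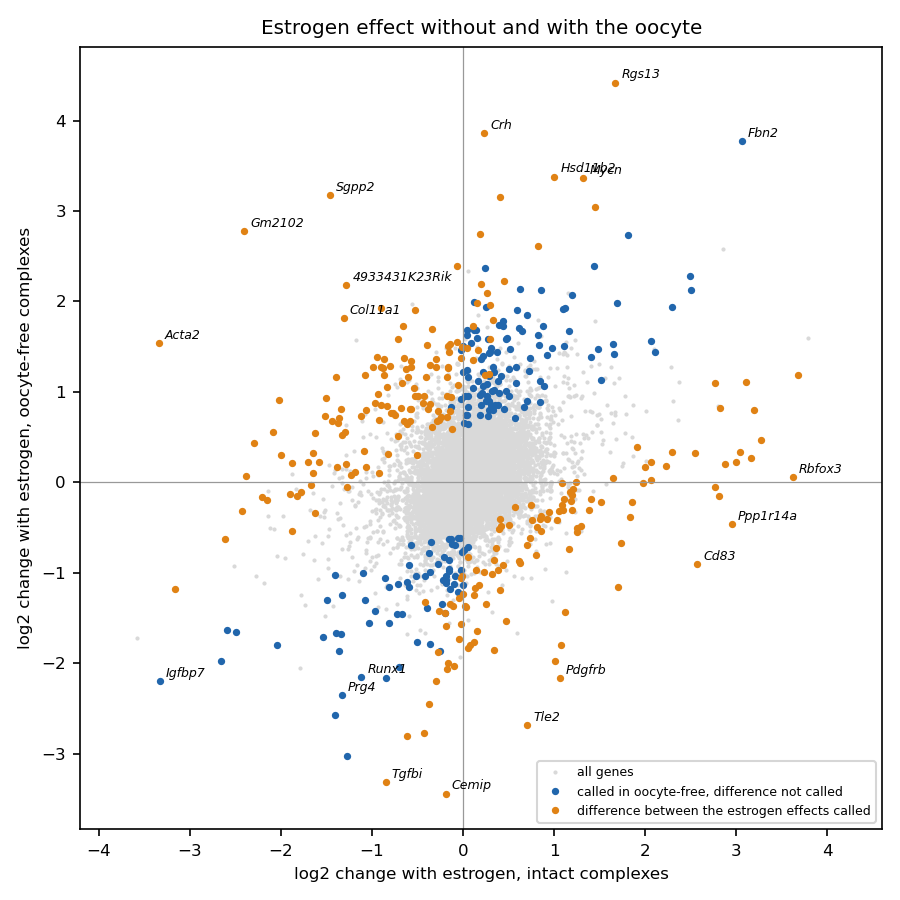
Log2 change with estrogen of each gene in oocyte-free complexes (vertical axis) against that in intact complexes (horizontal axis), with genes whose difference between the estrogen effects was called in orange. Gm2102, Sgpp2 and Acta2 lie in the upper left, higher with estrogen without the oocyte and lower with it. The change of Acta2 in oocyte-free complexes was not called. Fbn2 and Igfbp7 lie near the diagonal.

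Crh responded to estrogen without the oocyte and lay near 3 elsewhere. Its group means were 6.94 ± 0.393 with estrogen and 3.08 ± 0.295 without in oocyte-free complexes, against 3.09 ± 0.548 and 2.86 ± 0.279 in intact complexes (SD, n = 3 each). The difference between the estrogen effects was 3.64 (limma adjusted p = 0.00059). Crispld2 rose by 2.75 in oocyte-free complexes, against a change of 0.19 in intact complexes and 0.33 in cocultures, and both differences were called (limma adjusted p = 2.31e-05 and 0.000117). Unlike Crh, it was already high with oocytes present. Its means with and without estrogen were 12.81 and 12.63 in intact complexes and 12.92 and 12.59 in cocultures. In oocyte-free complexes they were 12.08 and 9.33, both below those of every group with oocytes. Cemip had group means of 6.81 ± 1.09 with and 10.25 ± 0.321 without estrogen in oocyte-free complexes (SD, n = 3 each), of 5.01 and 5.21 in intact complexes, and of 5.05 and 5.42 in cocultures.

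Some genes moved in opposite directions. Gm2102 rose by 2.78 in oocyte-free complexes and changed by -2.40 in intact complexes and -1.32 in cocultures, and Sgpp2 rose by 3.18 and changed by -1.46 and -1.39. For both genes oocyte-free complexes without estrogen were the lowest of the 6 groups. 4933431K23Rik rose by 2.18 and fell by 1.28 in intact complexes. The smooth muscle actin gene Acta2 changed by -3.34 in intact complexes and -2.59 in cocultures, where it fell. In oocyte-free complexes it had 11.99, 11.72 and 10.79 with estrogen, against 9.73, 9.64 and 10.51 without, and its change of 1.54 ± 0.410 was not called (limma adjusted p = 0.0881). Without array 14 it was called, at 1.82 (0.00815), as it was without array 17. Over all 6 arrays, 0 of the 3 Acta2 probe sets were called, with changes between -0.26 and 1.54. Of 19 actin and contractile genes, 0 were called in oocyte-free complexes, 11 fell in intact complexes and 9 in cocultures, and the difference was called for 4 and 8 of them. In oocyte-free complexes 2 of the 19 rose without array 14 and 2 without array 17. Chosen after its values were seen, Myocd, the smooth muscle coactivator myocardin, rose by 1.39 ± 0.267 in oocyte-free complexes and fell by 0.94 in intact ones. The rise was called in 1 of its 2 probe sets.

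Rbfox3, Cd83 and Ppp1r14a rose with estrogen in intact complexes and were not called in oocyte-free ones. Rbfox3, a neuronal splicing factor gene, changed by 0.06 ± 0.545 in oocyte-free complexes and rose by 3.62 in intact ones. Cd83, an immune cell surface gene, changed by -0.90 ± 0.315 against 2.57, and Ppp1r14a, a myosin phosphatase inhibitor gene, by -0.46 ± 0.344 against 2.95. Also chosen after its values were seen, Stc1, the stanniocalcin gene, fell by 1.80 ± 0.385 in oocyte-free complexes and rose by 1.08 in intact ones. The matrix protease gene Adamts9, chosen likewise, fell by 1.97 and rose by 1.01. In oocyte-free complexes 1 of 2 probe sets of Stc1 and 1 of 3 of Adamts9 were called. Pdgfrb, a platelet-derived growth factor receptor, had 5.77, 5.74 and 8.21 with estrogen, against 9.40, 8.97 and 7.82 without. Array 17 overlapped the arrays without estrogen for this gene, and its change of -2.16 ± 0.604 was not called, nor was its change of 1.06 in intact complexes. Without array 14 it was called, at -2.61 (limma adjusted p = 0.00935), as it was without array 17.

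**Figure D5:**
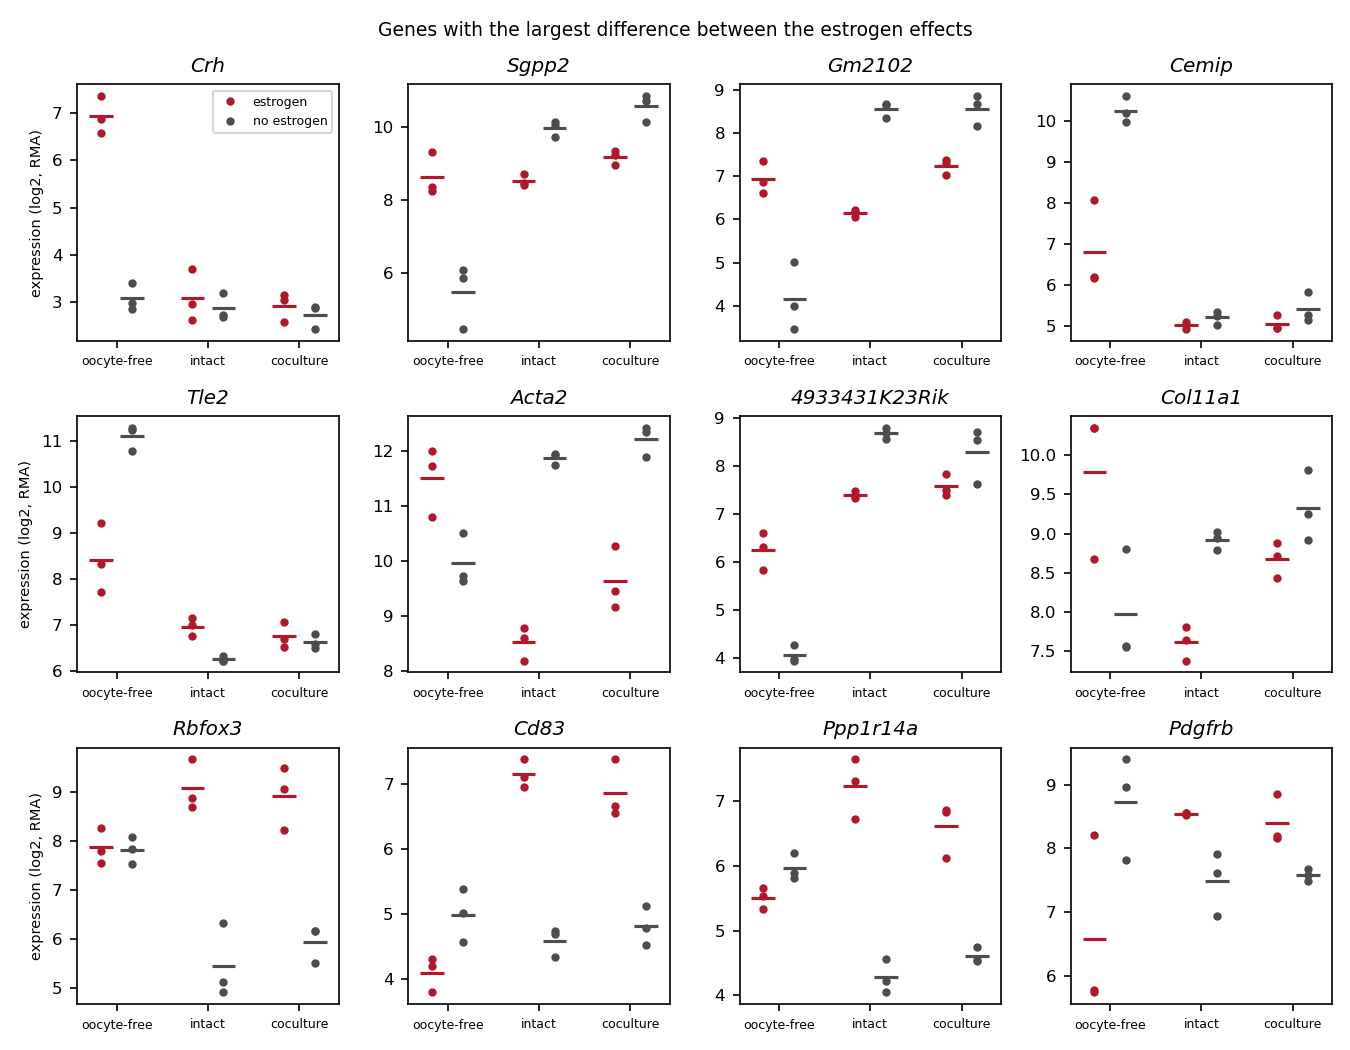
Log2 expression on each array (points) with group means (bars) for the 12 genes with the largest called differences between the estrogen effects in oocyte-free and intact complexes, in oocyte-free complexes, intact complexes and cocultures; red marks estrogen and grey no estrogen. The estrogen effect on Sgpp2, Gm2102 and Acta2 has opposite signs in oocyte-free and intact complexes, though for Acta2 it was not called in oocyte-free ones. Crh is near 3 in all groups except oocyte-free complexes with estrogen.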

How the data were processed

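Cumulus cell RNA of 18 samples was amplified in a pair of rounds and hybridised to Affymetrix mouse arrays, per the labels' protocols. Per the submitters' processing notes, RMA in Affymetrix Expression Console 1.1 produced the deposited log2 values. RMA corrects background, quantile-normalizes and summarises probe sets, so a shift of most transcripts in one direction would not be seen, and folds of dim genes are understated. No detection calls were used. Precision is limited by the number of arrays.

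Of 45101 probe sets, 64 were controls, 932 carried several gene symbols and 9160 none, which left 34945. Of these, 34741 symbols were updated through Entrez identifiers with a RefSeq table of GRCm38.p6. For each of 18193 genes the probe set of highest mean across the 18 arrays was taken. Groups came from sample titles, since 1 array has conflicting labels, and array series from the array names in the labels. limma 3.58.1 in R 4.3.3 fitted 6 group means over all 18 arrays without a filter, with array weights per group (0.82 with and 0.45 without estrogen for the oocyte-free groups, 0.99 to 1.71 elsewhere), and tests are two-sided. The fit was tested on simulated data with independent normal errors. The simulated data held no array series effect, outlying array or conflicting label, so that test does not cover these. Genes named were the 14 largest rises and 14 largest falls among called genes with no overlap, up to 4 called genes per list, receptors and coregulators above the median of all single-gene probe sets, the 6 largest interactions each way with intact complexes, and the 4 largest changes each way in all 3 contrasts. The 29 gene lists, their 536 entries of which 493 matched, the comparison and its rules were chosen with earlier results of these data known. Alternatives were other weights, series as a term, other sets of arrays, other normalizations, other probe set rules and a replicate block.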

Additional observations from a re-analysis of the deposited data

Results flagged for a closer look

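The estrogen effect differed between oocyte-free and intact complexes for 250 genes, and between oocyte-free complexes and cocultures for 176 genes, by limma's test of the difference itself. As differences of log2 changes, oocyte-free minus intact, the largest positive values were those of Gm2102 (5.18), Acta2 (4.88), Sgpp2 (4.63), Crh (3.64), 4933431K23Rik (3.46) and Col11a1 (3.12), a fibrillar collagen gene. The largest negative values were those of Rbfox3 (-3.56), Cd83 (-3.47), Ppp1r14a (-3.40), Tle2 (-3.38), Cemip (-3.25) and Pdgfrb (-3.21). Of these 12 genes, Acta2, Col11a1, Rbfox3, Cd83, Ppp1r14a and Pdgfrb were not called for estrogen in oocyte-free complexes. Col11a1 had 10.34, 10.35 and 8.68 in estrogen arrays 5, 11 and 17, against 7.55, 7.57 and 8.80 in arrays 2A, 8 and 14, where array 17 lay below array 14.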

How the results depend on the processing

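In oocyte-free complexes 272 genes were called. The count was 140 with the 6 oocyte-free arrays alone, 1110 with no array weights, 2002 with a weight for each array, 150 within array series 3, 0 with number 5 grouped by its source name and 416 with the mean of a gene's probe sets. Leaving out 1 array gave 59 to 877. It stayed within 1.5 times with array series as a term (230), a second quantile normalization (359), median centring (317), a mean-variance trend (271), a filter on dim genes (348), a 2-fold minimum (209) and without arrays 5 and 14 (247, chosen after seeing the data). The main fit did not treat array numbers as pairs. Deviations from the group means correlated at 0.072, -0.185 and -0.246 for the pairs 5 and 2A, 11 and 8, and 17 and 14. The arrays of each pair lay in different array series, so these values cannot settle whether they shared animals or cultures. The fit with the replicate block called 227 genes.

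Intact complexes (1460 genes) gave 577 with no array weights and 377 at 2-fold or more, and cocultures (680) gave 1702 with a weight for each array and 323 at 2-fold or more. The difference from intact complexes (250) gave 789 with a weight for each array, 61 with number 5 by its source name and 64 to 474 with 1 oocyte-free array left out. The difference from cocultures (176) gave 284 with no array weights, 885 with a weight for each array, 280 with array series as a term, 27 with number 5 by its source name and 34 to 338 with 1 array left out. The cause of these shifts was not tested. Leaving out arrays cannot change a sign where the groups do not overlap, as for 271 of the 272 called genes. All 59 named and called genes kept their sign in all settings. They lost their call with number 5 by its source name, and 38 of them were called without array 5, 47 without 11, 33 without 2A, 28 without 8, 34 within array series 3 and all 59 without 17 or without 14.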
